A study of Arabidopsis thaliana with 6 samples.

Results

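The chloroplast genes *ndhF*, *rpl32* and *ccsA* are neighbours where the inverted repeat gives way to the small single-copy region, the shorter of the stretches of the plastid genome that are not duplicated. They were chosen by name and position, and each had an entry of its own, so that they are 3 of the 73 chloroplast RNAs measured. In DO-RIP-Seq, a digestion-optimized form of RNA immunoprecipitation, RNA is fixed to protein with formaldehyde, trimmed with RNase I and precipitated with an antibody. The 3 pellets hold the RNA fragments that came down with an antibody against CP31A, and the 3 inputs hold fragments of the same mix before washing. All 6 libraries came from wild-type Columbia-0 *Arabidopsis thaliana* seedlings, grown for 14 days at 21 °C under long days. Pellets and inputs were set against each other in 3 pairs, by biological replicate. Precipitates with non-specific immunoglobulins were not analysed here, so that the values below are relative to input alone.

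The chloroplast NADH dehydrogenase-like (NDH) complex is a thylakoid relative of respiratory complex I that reduces plastoquinone with electrons from ferredoxin. *ndhF* encodes a large proton-pumping subunit of its membrane arm. *rpl32* encodes protein L32 of the large subunit of the plastid ribosome. *ccsA* encodes a membrane protein that is needed to attach haem to c-type cytochromes such as cytochrome f, the product of *petA*. CP31A is a nuclear-encoded chloroplast ribonucleoprotein with RNA recognition motifs, and proteins of this family are known for stabilising and helping to edit many plastid transcripts.

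In the TAIR10.1 chloroplast sequence of RefSeq, *ndhF* (locus tag ArthCp071) lies on the minus strand from 110398 to 112638, *rpl32* (ArthCp072) on the plus strand from 113449 to 113607, and *ccsA* (ArthCp073) on the plus strand from 114461 to 115447. None of the 3 genes has an annotated intron. *ndhF* and *rpl32* point away from each other, with 810 nt between their start codons, and *trnL*, a leucine tRNA gene, stands between *rpl32* and *ccsA*. The 3′ end of *ndhF* overlaps the 3′ end of the shorter copy of *ycf1* by 39 nt on opposite strands, and *ccsA* ends 217 nt from the 3′ end of *ndhD*, which again lies on the minus strand. The stretch that both *ndhF* and *ycf1* use is shown on each strand, because only reads on the coding strand were counted and the same bases belong to different RNAs. Capitals mark the stop codon.

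*ndhF* strand, 110398 to 110436: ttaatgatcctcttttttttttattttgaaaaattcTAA
*ycf1* strand, 110398 to 110436: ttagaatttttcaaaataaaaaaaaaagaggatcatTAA

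Reads had been counted over each gene with 100 nt on either side. The window of *ndhF* is 2441 nt long, that of *ccsA* 1187 nt and that of *rpl32* 359 nt. None of the 3 windows overlaps the window of another protein-coding gene on its own strand, so that no coding-strand base was also counted for another gene. The study describes chloroplast transcripts as overlapping and spanning several genes, so that a window can hold reads of different transcripts. The 3′ end of the *ndhF* window lies over the shorter copy of *ycf1*, part of the inverted repeat, where reads can come from either copy. The map of the region shows the genes and these windows.

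**Figure D1:**
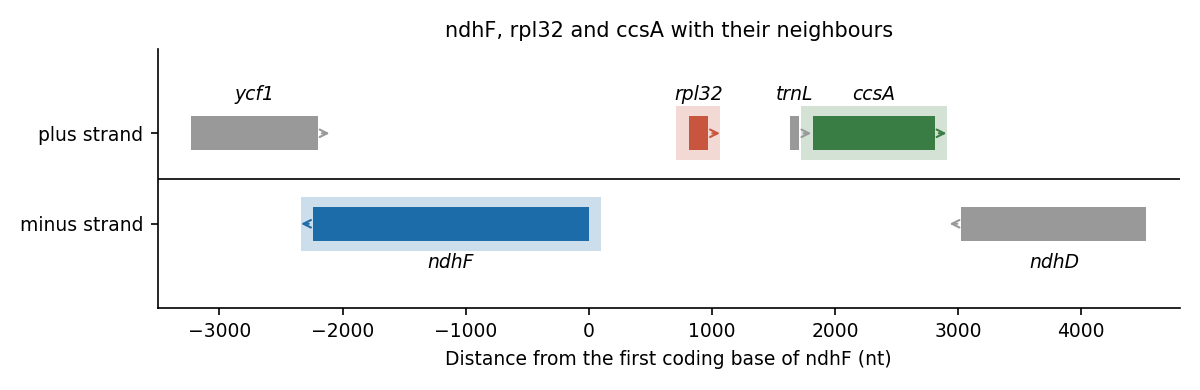
Genes at the end of the small single-copy region by strand, with distance from the first coding base of *ndhF* in nt on the x axis. Dark bars are genes, pale bars the counting windows of the 3 genes, arrows the direction of transcription; *ndhF* and *rpl32* start 810 nt apart and run in opposite directions.

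All 3 windows are poor in G and C, but they differ in which base takes their place. GC content was 29.6% in *ndhF*, 25.9% in *rpl32* and 27.2% in *ccsA*, against a median of 33.9% over the 72 RNAs whose window length matched the annotation, and that of *rpl32* was the lowest of the 72. Read on the coding strand, *rpl32* had the highest share of A (45.4%) and only 28.7% U. *ndhF* and *ccsA* were instead rich in U, with 40.3% (rank 4 of 72) and 39.4% (rank 8 of 72), against a median of 32.9%. The coding strands of the 3 genes show this contrast. *rpl32*, with 53 codons, is given whole, and *ndhF* (747 codons) and *ccsA* (329 codons) by their first 90 coding bases. Start and stop codons are in capitals, and T stands for U.

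*ndhF*, 112549 to 112638, minus strand: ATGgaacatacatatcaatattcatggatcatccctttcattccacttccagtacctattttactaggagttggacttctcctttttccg
*rpl32*, 113449 to 113607, plus strand: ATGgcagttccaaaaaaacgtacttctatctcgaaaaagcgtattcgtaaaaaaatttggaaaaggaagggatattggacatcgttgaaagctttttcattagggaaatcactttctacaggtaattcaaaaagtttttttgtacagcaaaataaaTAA
*ccsA*, 114461 to 114550, plus strand: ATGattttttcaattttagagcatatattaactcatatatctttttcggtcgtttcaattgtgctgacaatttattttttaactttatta

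*rpl32* holds several runs of A, while T is the commonest base of the opening of *ccsA*. Base composition is given as a description and was not tested against enrichment.

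The deposited unit is TPM, reads divided by window length, flanks included, and scaled to nearly the same total in each library. Levels of different genes are thus corrected for window length, but for no other difference between genes. Whole reads could be recovered from TPM and window length. They numbered 251570, 336446 and 392286 in pellets 1, 2 and 3 and 24224, 67822 and 73526 in inputs 1, 2 and 3, summed over the 73 RNAs. Intervals on reads cover counting error only. On the log2 scale input 1 correlated at 0.919 and 0.935 with inputs 2 and 3, which correlated at 0.994 with each other, a description across RNAs. The mean enrichment and rank of the 3 RNAs, their differences and the share of *ndhF* are therefore also given without replicate 1. The fits of other named RNAs, the gene lists and the profile distances rest on all 3 pairs.

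The *ndhF* mRNA was 4.74-fold higher in the pellets than in the inputs, second of 73 RNAs behind *ndhI*. It had 3661, 4059.6 and 4404 TPM in pellets 1, 2 and 3, against 314, 1584 and 1234 TPM in inputs 1, 2 and 3. The lowest pellet stood 2.31-fold above the highest input, and input 1 lay far below the other inputs. Pellets all above inputs were found for 46 of the 73 RNAs (63%), *rpl32* and *ccsA* included. The reads behind these values were 2013, 3033 and 3848 in the pellets and 16, 222 and 187 in the inputs. The 16 reads of input 1 allow 180 to 510 TPM (95% exact Poisson interval), and the lowest bound in the other inputs was 1064 TPM. The shortfall in input 1 therefore exceeds counting error. The log2 enrichment was 3.54, 1.36 and 1.84 in the pairs of replicates 1, 2 and 3, at ranks 1, 9 and 3 of the 73 RNAs. The 95% counting interval of the first pair, 2.84 to 4.35, lay above those of the others, which reached up to 1.56 and 2.06. Its mean of 2.25 ± 1.15 (SD, n = 3 pairs) had a limma standard error of 0.39 and an adjusted p = 0.00264 from limma over 73 RNAs. No other RNA differed as much between pairs, and the median SD over the 73 RNAs was 0.35. Without replicate 1 the log2 enrichment of *ndhF* was 1.60.

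The *rpl32* mRNA was 1.77-fold higher in the pellets than in the inputs, although its log2 enrichment was -0.0034 once the median of each library was set to 0. It had 2993, 3777 and 4241 TPM in pellets 1, 2 and 3, against 1468, 2717 and 2154 TPM in inputs 1, 2 and 3. The groups did not overlap, but the lowest pellet (2993 TPM) stood close to the highest input (2717 TPM). With the shortest window of the 3 it also rested on the fewest reads: 242, 415 and 545 in the pellets and 11, 56 and 48 in the inputs. The 95% interval of input 1 ran from 733 to 2627 TPM and overlapped those of inputs 2 and 3. The log2 enrichment was 1.03, 0.48 and 0.98 in the pairs of replicates 1, 2 and 3, with a mean of 0.83 ± 0.31 (adjusted p = 0.0145 from limma; SD, n = 3 pairs). It stood at rank 32, near the median RNA, whose log2 enrichment was 0.71. Without replicate 1 it was 0.73, the same as the median RNA, and passed. So did 58 of the 73 RNAs in that fit, with a standard error shared by all. Without replicate 3, *rpl32* had 0.75 and missed the threshold (adjusted p = 0.188 from limma).

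The *ccsA* mRNA was 2.36-fold higher in the pellets than in the inputs, at rank 17. It had 2334, 2331 and 2259.5 TPM in pellets 1, 2 and 3, against 565, 1394 and 1194 TPM in inputs 1, 2 and 3. The pellets were almost equal, with a log2 SD of 0.027, the fourth smallest of the 73 RNAs, and each stood above every input. Reads numbered 624, 847 and 960 in the pellets and 14, 95 and 88 in the inputs. The interval of input 1, 309 to 948 TPM, ended just below those of inputs 2 and 3, the lower of which began at 958 TPM. The log2 enrichment was 2.05, 0.74 and 0.92 in the pairs of replicates 1, 2 and 3, so that only the first pair exceeded 2-fold. Over the pairs the mean was 1.24 ± 0.71 (SD, n = 3 pairs; adjusted p = 0.00747 from limma). Without replicate 1 it was 0.83, still past the test but under 2-fold. In that fit 58 of the 73 RNAs were enriched and the median RNA stood at 0.73. Every RNA had the same standard error there, so that the call does not weigh the spread of *ccsA*.

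**Figure D2:**
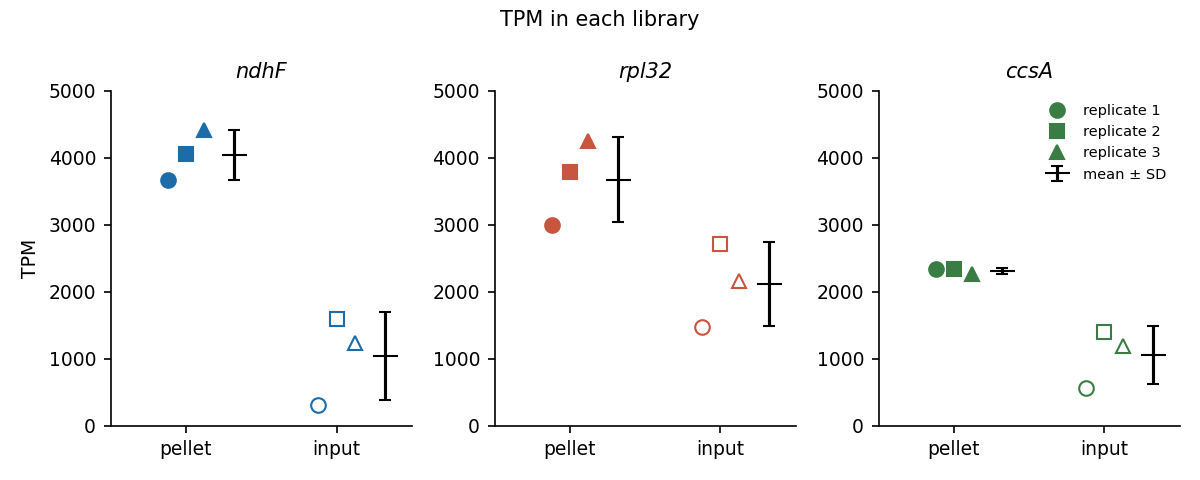
TPM (y axis) of *ndhF*, *rpl32* and *ccsA* in the 3 pellets (filled) and 3 inputs (open), with the replicate by symbol and the mean ± SD as bars. All pellets lie above all inputs for each RNA, and input 1 (open circle) is the lowest input of each.

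On TPM as deposited, all 3 mRNAs were thus enriched at an adjusted p under 0.05, as were 36 of the 73 RNAs (49.3%). Under the other scalings given below, *ccsA* and *rpl32* did not pass, and *ndhF* passed only with the median of each library at 0. *ndhF* and *ccsA* also met the 2-fold threshold of the study's methods, a log2 enrichment of at least 1, which 25 of the 73 RNAs met (34.2%). With 3 genes, no excess over these shares can be read from the counts.

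**Figure D3:**
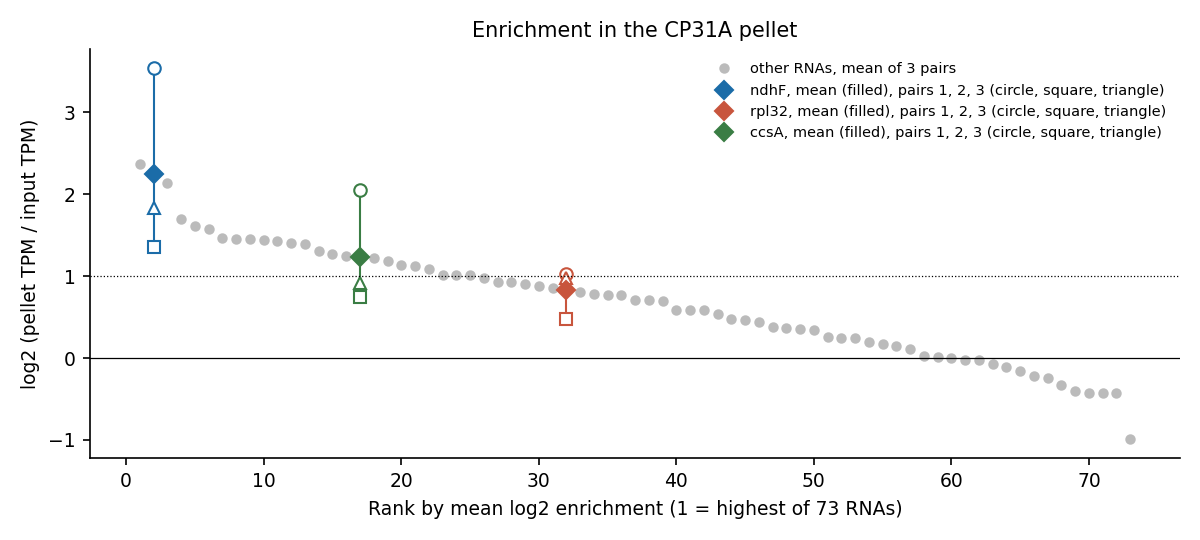
Log2 ratio of pellet to input TPM (y axis) of the 73 RNAs by rank of their mean (x axis, 1 is the highest). Diamonds are the means of *ndhF* (rank 2), *ccsA* (rank 17) and *rpl32* (rank 32), open symbols their 3 pairs, grey points the means of the other RNAs, and the dotted line 2-fold enrichment; the pair of replicate 1 is the highest for each of the 3.

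Most of the spread between pairs lay in the inputs. Between its lowest and its highest library, log2 TPM of *ndhF* spanned 0.27 in the pellets and 2.33 in the inputs. That of *ccsA* spanned 0.05 in the pellets and 1.30 in the inputs, and that of *rpl32* 0.50 in the pellets and 0.89 in the inputs. The median RNA spanned 0.19 in the pellets and 0.80 in the inputs. Input 1 differed from the mean log2 TPM of inputs 2 and 3 by -2.15 for *ndhF*, the lowest of the 73 RNAs, by -1.19 for *ccsA* (ninth from the lowest) and by -0.72 for *rpl32* (15th from the lowest). Over all RNAs 32 of 73 lay below 0 in this measure, with a median of 0.17. Input 1 is also the library with the fewest reads, and the part of depth or of this library in the size of the enrichment was not tested.

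The order of the 3 RNAs by level differed between pellet and input. Among the pellets *ndhF* (4042 ± 372 TPM) lay above *rpl32* (3670 ± 631 TPM) in every library, though their means did not differ beyond their spread (SD, n = 3). *ccsA* (2308 ± 42.2 TPM) lay below both in every pellet (SD, n = 3). Among the inputs *rpl32* (2113 ± 625 TPM) was the highest in every library, and *ccsA* (1051 ± 432 TPM) and *ndhF* (1044 ± 656 TPM) did not differ beyond their spread (SD, n = 3). *ndhF* had 1.22, 1.07 and 1.04 times the TPM of *rpl32* in pellets 1, 2 and 3, against 0.21, 0.58 and 0.57 times in inputs 1, 2 and 3. These ratios are formed within a library and do not depend on how libraries are scaled against each other. The 3 RNAs together held 0.90%, 1.02% and 1.09% of all TPM in pellets 1, 2 and 3 and 0.23%, 0.57% and 0.46% in inputs 1, 2 and 3.

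As a share of the summed TPM of the 3 RNAs, *ndhF* took 40.7%, 39.9% and 40.4% in pellets 1, 2 and 3, against 13.4%, 27.8% and 26.9% in inputs 1, 2 and 3. It was larger in the pellet in 3 of 3 pairs, by 17.6 ± 8.44 percentage points (SD, n = 3 pairs), and by 12.8 points without replicate 1. The share of *rpl32* was 33.3%, 37.1% and 38.9% in pellets 1, 2 and 3 and 62.5%, 47.7% and 47.0% in inputs 1, 2 and 3. It was smaller in the pellet in 3 of 3 pairs, although the TPM of *rpl32* itself was higher in the pellet in each pair. The 3 shares make up a fixed total, so that they and their tests are not independent of each other. The share of *ccsA* differed by -1.67 ± 3.62 points (SD, n = 3 pairs), with 23.2% ± 2.63 in the pellets and 24.9% ± 1.05 in the inputs (SD, n = 3). Each share of *ndhF* and *rpl32* gave p = 0.25 in a two-sided exact sign-flip test, the smallest value that 3 pairs allow, and that of *ccsA* gave p = 0.75 in the same exact test.

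**Figure D4:**
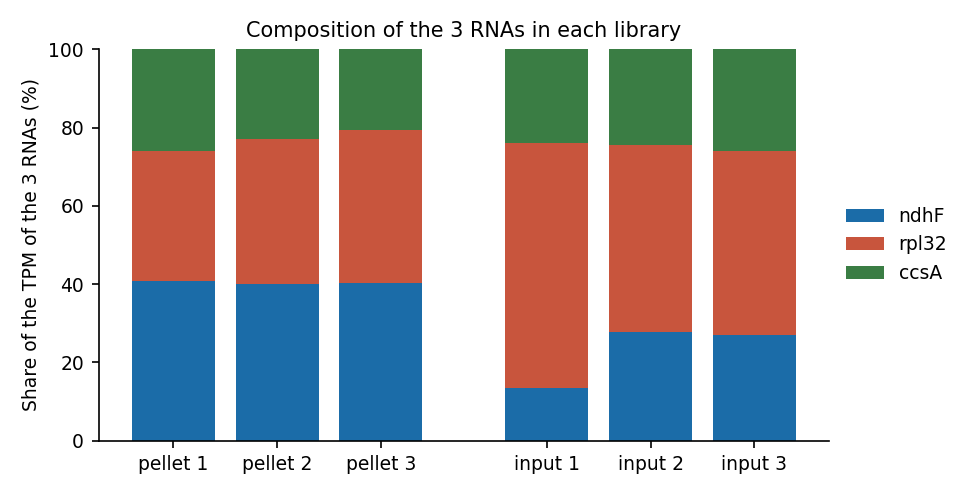
Share of the summed TPM of *ndhF*, *rpl32* and *ccsA* taken by each (y axis, percent) in pellets 1 to 3 and inputs 1 to 3. *ndhF* takes 39.9% to 40.7% in the pellets and 13.4% to 27.8% in the inputs, while *rpl32* is the largest part of each input.

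Tested within libraries, *ndhF* was enriched more than *rpl32*, by a log2 difference of 2.52, 0.88 and 0.86 in the pairs of replicates 1, 2 and 3. The mean difference was 1.42 ± 0.95 (SD, n = 3 pairs; adjusted p = 0.00379 from limma over 72 RNAs set against *rpl32*). In that fit 3 of 72 RNAs (4.17%) stood above *rpl32*, namely *ndhI*, *ndhF* and *ndhC*, all for NDH subunits. The fit gave every RNA the same standard error of 0.37, so that the call does not weigh how *ndhF* itself varied between pairs. It did not pass without replicate 1 (0.87, adjusted p = 0.0875 from limma), without replicate 3 (1.70, adjusted p = 0.218 from limma) or without the pairing as a block (1.42, adjusted p = 0.0790 from limma).

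The enrichment of *ndhF* was higher than that of *ccsA* in 3 of 3 pairs, with log2 differences of 1.50, 0.62 and 0.92 and a mean of 1.01 ± 0.45 (SD, n = 3 pairs). This difference did not pass (adjusted p = 0.193 from limma over 72 RNAs set against *ccsA*; 95% interval -0.02 to 2.04). None of the 72 RNAs (0%) stood above *ccsA* in that limma fit, and 1 did at an unadjusted p under 0.05. Without replicate 1 the difference was 0.77 and passed (adjusted p = 0.000881 from limma), again with a standard error shared by all RNAs. The plus-strand neighbours *ccsA* and *rpl32* differed by 1.02, 0.27 and -0.06 in the 3 pairs. Their mean difference of 0.41 ± 0.55 (SD, n = 3 pairs) did not pass (adjusted p = 0.433 from limma; 95% interval -0.31 to 1.13). Each of these 3 differences was also put to a two-sided exact sign-flip test over the pairs, which gave p = 0.25, p = 0.25 and p = 0.5 in the order given, where 0.25 is the smallest possible.

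Beside the genes of its own complex, *ndhF* was second of the 11 NDH mRNAs, which were all enriched, from 1.27 for *ndhJ* to 2.37 for *ndhI*, with a median log2 enrichment of 1.57 against 0.71 over the 73 RNAs. *rpl32* was the highest of 7 mRNAs for proteins of the large ribosomal subunit and the only one of them that passed. The next was *rpl20*, with 0.26 ± 0.68 (adjusted p = 0.480 from limma; SD, n = 3 pairs), and the lowest *rpl22*, with -0.15 ± 0.97 (SD, n = 3 pairs). Much of this gap lay in the pair of replicate 1, where 5 of these 6 others were below 0 and *rpl33* was at 0.07, while *rpl32* was at 1.03. In the pairs of replicates 2 and 3 all 6 others were above 0, and in that of replicate 2 *rpl20* (0.80) lay above *rpl32* (0.48), with *rpl16* (0.45), *rpl14* (0.44) and *rpl2* (0.43) just below it. Whether *rpl32* differed from the others of its group was tested only against each RNA in turn in the fit above, where *rpl22* alone of them stood below *rpl32*. Of 10 mRNAs for the small ribosomal subunit, 5 were enriched and 5 did not pass, a share like the 49.3% of all RNAs, between 1.12 for *rps2* and -0.24 for *rps18*. Among 6 mRNAs for the cytochrome b6f complex, 3 passed, again a share like that of all RNAs, led by *petN* with 1.40 (adjusted p = 0.00428 from limma), and *petA*, whose product depends on the CcsA protein, was the lowest with 0.02 ± 0.57 (SD, n = 3 pairs; adjusted p = 0.967 from limma).

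The genes that flank the 3 on the chromosome lay near opposite ends of the ranking. The shorter copy of *ycf1*, which shares its last 39 nt with *ndhF* on the other strand, was the only RNA depleted in the pellet in the fit on TPM as deposited, at -0.99 ± 0.28 on the log2 scale (adjusted p = 0.00726 from limma; SD, n = 3 pairs). It is part of the inverted repeat, so that its reads can come from either copy of that sequence, and it had 76, 62 and 81 reads in the pellets and 17, 19 and 28 in the inputs. Its TPM values overlapped between pellets and inputs, although each pellet lay below its own input. *ndhD*, an NDH membrane subunit gene beyond *ccsA*, was enriched by 1.46 ± 0.39 on the log2 scale (adjusted p = 0.00260 from limma; SD, n = 3 pairs). Of 12 RNAs of the small single-copy region and its *ycf1* ends, 9 were enriched, beside 36 of all 73 RNAs (49.3%), *ycf1.1* was depleted, and *psaC* and the longer *ycf1* did not pass, while *rps15* was not analysed here. The 8 that reached 2-fold, beside 25 of all 73 RNAs (34.2%), were 7 NDH mRNAs and *ccsA*. On TPM as deposited all 11 NDH mRNAs reached it, while under the other scalings 2 or 3 of all 73 RNAs passed and reached it. Whether it goes with position or with the complex was not tested.

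By the profile over the 3 pairs, *ccsA* was closest to *cemA*, *psaI* and *atpI*, with a root mean square log2 difference of 0.12, 0.13 and 0.17, followed by *petN* and *ndhB*. *rpl32* was closest to *petL*, *rpoC1*, *ycf2*, *psbT* and *psbK*, at 0.18 to 0.26. *ndhF* had no close match: *ndhG* was nearest at 0.61, then *ndhI* (0.75), *ndhE* (0.78), *petN* (0.95) and *ndhB* (0.96). Its own neighbours were farther off, with *ccsA* at place 10 of 72 at 1.07 and *rpl32* at 1.62. *ndhG* shared the high first pair, at 2.68 for replicate 1 and 1.19 and 1.23 for the others. Input 1 differed from the mean log2 TPM of inputs 2 and 3 by -1.19 for *ccsA* and by -1.16 (*cemA*) to -1.57 (*atpI*) for its 5 nearest. For *ndhF* it was -2.15, with -0.65 (*ndhI*) to -1.66 (*ndhE*) for its 5 nearest. For *rpl32* it was -0.72, with 0.02 (*ycf2*) to -0.96 (*psbK*). The part of input 1 in these distances was not tested, and none was computed without replicate 1. They describe 3 pairs and carry no test.

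The size of each enrichment and the number of calls depend on how libraries are set against each other, with 36 of the 73 RNAs enriched on TPM as deposited and 3 to 5 under the other scalings. TPM has nearly the same total in each library, and the abundant mRNAs *psbA* and *rbcL* stood at -0.43 each. With the median of each library at 0, the median RNA moved by -0.83 on the log2 scale, *ndhF* still passed at 1.42 (adjusted p = 0.0397 from limma), *ccsA* did not pass at 0.41, and *rpl32* was at -0.0034. Rescaled without *psbA*, *rbcL* and *psbC*, none of the 3 passed, with 1.76 for *ndhF* (adjusted p = 0.105 from limma), 0.75 for *ccsA* and 0.34 for *rpl32*. Ranks of 2, 17 and 32 were the same in each of these scalings, since a scaling moves all RNAs of a library alike. That is therefore no check of the ranks. Without replicate 1, on TPM as deposited, they were 3 for *ndhF*, 29 for *ccsA* and 38 for *rpl32*.

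**Figure D5:**
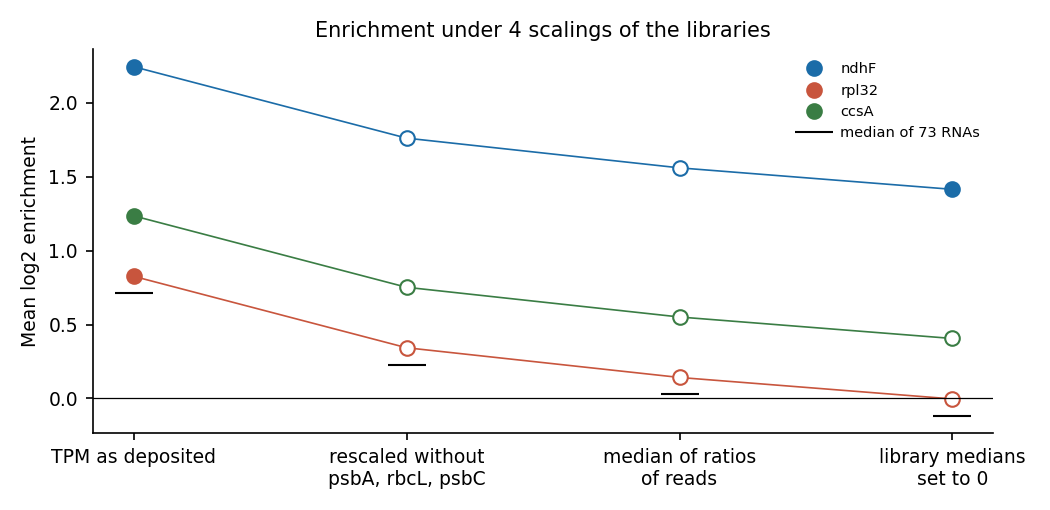
Mean log2 enrichment (y axis) of *ndhF*, *rpl32* and *ccsA* over 3 pairs under 4 scalings of the libraries (x axis), with filled points where the adjusted p from limma was under 0.05 and a black dash for the median of the 73 RNAs. *ndhF* stays at 1.42 or more. *rpl32* lies close to the median RNA, at a distance that these scalings cannot change, since each moves all RNAs of a library alike.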

How the data were processed

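RNA was measured by DO-RIP-Seq in 3 CP31A pellets and 3 inputs of wild-type seedlings, called biological replicates in the methods. The authors used Trim Galore 0.6.4 for trimming, UMI-tools 0.5.4 for removing duplicates by molecular identifier, STAR 2.5.3 for alignment to TAIR10 and featureCounts for coding-strand reads, per the study's methods and the processing notes of the submitters. Genes with very few reads in any library had been left out. The authors deposited TPM for 77 entries in each library. Their log2 columns repeat the deposited TPM (largest difference 3.55e-15). The deposited mean log2 enrichment and the deposited p-value hold the authors' own comparison and were not used.

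Copies of *ndhB*, *rps7*, *ycf2* and *rpl2* in the inverted repeat were averaged, which left 73 RNAs. Positions came from RefSeq TAIR10.1, whose chloroplast has 154478 bp, and the deposited table holds no coordinates. With its window lengths, TPM gave whole reads (tolerance 0.0001) for 76 of 77 entries, the exception being *psbC*, and for all 3 genes described. Reads of replicate libraries differed by 12.5 to 47.1 in chi-square per degree of freedom (72), so that none was a repeat. Depth per library and per RNA stands with the results.

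Enrichment was fitted with limma 3.58.1 in R 4.3.3, on log2 of TPM with no pseudocount, replicate as a block, two-sided, with Benjamini-Hochberg adjustment over 73 RNAs. The block follows the methods and the shared mix of each pair. Deviations from group means correlated at 0.17, 0.30 and -0.03 within replicates 1, 2 and 3. Differences between genes were fitted likewise after subtracting log2 TPM of *rpl32* or *ccsA* in each library. The deposited values are TPM, and no count model was run on the reads recovered from them. Each log2 TPM value had the same weight in the fit, whatever its number of reads. The fit was checked on simulated data. The rest ran in Python 3.11.15 (scipy 1.17.1, numpy 2.4.6, matplotlib 3.10.9, pandas 2.3.3). Other genes named are the flanking genes, the RNAs rescaled for abundance, the 5 nearest profiles of each gene and the extremes of lists set by gene name. *ndhC*, *psaC*, *rpl20*, *rpl33* and the other genes called against *rpl32* were named after their values were seen. The genes, lists and alternatives were chosen with earlier results of these data known.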

Additional observations from a re-analysis of the deposited data

How the results depend on the processing

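Counting error limits *rpl32* most, with 11 reads in input 1. The reads recovered are the smallest numbers that match. With library medians at 0, which moves all RNAs of a library alike, *rpl32* was at -0.0034 (adjusted p = 0.989 from limma). Scaled by the median of ratios of reads, *ndhF* had 1.56 (adjusted p = 0.0764 from limma), *ccsA* 0.55 and *rpl32* 0.14, and none passed. Rescaled without *psbA*, *rbcL* and *psbC*, they had 1.76, 0.75 and 0.34 and did not pass, and with library medians at 0 *ccsA* had 0.41 and did not pass. The methods' t-test is paired and one-sided, unlike the two-sided limma fits. By this one-sided t-test all 3 had an unadjusted p under 0.05 (0.0386 for *ndhF*, 0.0470 for *ccsA* and 0.0213 for *rpl32*). None passed it after Benjamini-Hochberg adjustment, at unchanged means of 2.25 (*ndhF*), 1.24 (*ccsA*) and 0.83 (*rpl32*). The cause of these changes was not tested.

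With a replicate left out, log2 enrichment ran from 1.60 to 2.69 for *ndhF*, from 0.83 to 1.48 for *ccsA* and from 0.73 to 1.00 for *rpl32*. The differences ran from 0.87 to 1.70 for *ndhF* minus *rpl32*, from 0.77 to 1.21 for *ndhF* minus *ccsA* and from 0.10 to 0.64 for *ccsA* minus *rpl32*, and the share difference of *ndhF* from 12.8 to 20.4 points. In these enrichment fits every RNA had the same standard error, so that a call does not weigh the spread of that RNA. RNAs enriched numbered 21 to 58 and targets, those with at least 2-fold enrichment, 21 to 26. Leaving out the replicate block changed no enrichment call of the 3 genes (adjusted p = 0.0104, 0.0156 and 0.0320 from limma for *ndhF*, *ccsA* and *rpl32*), but *ndhF* minus *rpl32*, at 1.42, no longer passed.

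RNAs enriched, 36 in all, were 4 with library medians at 0, 5 rescaled without the 3 abundant RNAs, 3 by the median of ratios and 20 under the methods' t-test after adjustment. Targets, 25 in all, were 3, 3, 2 and 12 in that order. With at least 20 reads in every library 49 RNAs were left, with 19 enriched and 12 targets. That filter removed *ndhF*, *rpl32* and *ccsA*, and with at least 10 reads all 3 stayed and passed.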
